A study of Rattus norvegicus with 20 samples.

Results

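Col1a1, Col3a1, Col6a3 and Dcn are matrix genes of connective tissue that were measured here in cultured rat epithelial cells. They are 4 of the 32494 genes counted, and all 4 were among the 13302 genes that passed the filter on low counts. Their Ensembl identifiers are ENSRNOG00000003897 for Col1a1, ENSRNOG00000003357 for Col3a1, ENSRNOG00000019648 for Col6a3 and ENSRNOG00000004554 for Dcn. The pairing of identifier and symbol came from gene lists supplied with the study, which hold 2311 genes that the study listed as different from whisker cells. That the 4 genes differ somewhere from whisker cells is therefore not independent of how they came to have a name.

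Col1a1 encodes a chain of type I collagen, the main fibrillar collagen of dermis, bone and tendon. Col3a1 encodes type III collagen, which forms thinner fibrils together with type I in the walls of hollow organs and in skin. Col6a3 encodes a chain of type VI collagen, which assembles with the products of Col6a1 and Col6a2 into beaded filaments around cells. Dcn encodes decorin, a small leucine-rich proteoglycan that binds collagen fibrils and regulates their assembly. In tissue these proteins are made mainly by fibroblasts and related mesenchymal cells, while epithelial cells are better known for basement membrane collagens such as types IV, VII and XVII.

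All samples were cells of EGFP-expressing Sprague-Dawley rats, with the strain name CZ-004 SDTgN(act-EGFP)obsCZ-004 in the labels, grown on lethally irradiated mouse 3T3-J2 fibroblasts and sorted for EGFP before RNA extraction. The bladder cells came from the dome of a rat of age PN201 (postnatal days), tracheal and vaginal cells from PN200, thymic cells from a frozen stock of PN137, and whisker follicle cells from PN57. The 1st round is the culture before transplantation, and the 2nd round is the culture of EGFP cells recovered after they had been transplanted into newborn mouse skin that was then grafted onto nude mice. Each of the 5 tissues had 2 samples per round, 20 in all. The labels name the bladder, tracheal and vaginal cells of both rounds as bulk. The whisker cells were 1 clone (clone 7) in the 1st round and 1 subclone (subclone 14) in the 2nd. The labels of the 1st round thymic cells name both a bulk culture and clone 9, and those of the 2nd round name bulk 907. The sources do not say that the 2 samples of a group came from separate animals or transplants, so the p values measure the spread between these samples, which may be technical. Reads on rat genes numbered between 20723083 and 29824855 per sample. Levels are given as CPM, counts scaled to 1000000 reads on the tested genes, with the total of each sample adjusted by its TMM normalization factor. Cdh1 and Epcam, which define epithelial cells, lay between 806 and 2420 CPM and between 140 and 519 CPM in the 20 samples. The other defining epithelial genes, Krt5 and Krt14, are not analysed here.

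The sequence upstream of a transcription start is shown for Col6a3, the member with an entry in the RefSeq promoter table used (build GRCr8). It is also shown for Col6a1, because this partner chain was called in the same tissues as Col6a3 for the change after transplantation. Each run holds the 250 bases before the start site, 5′ to 3′ on the strand of the gene, for Col6a3 at chr9:98886959-98887208 (minus strand) and for Col6a1 at chr20:11905440-11905689 (plus strand). Capitals mark a match to one of 5 motifs searched on both strands.
Col6a3: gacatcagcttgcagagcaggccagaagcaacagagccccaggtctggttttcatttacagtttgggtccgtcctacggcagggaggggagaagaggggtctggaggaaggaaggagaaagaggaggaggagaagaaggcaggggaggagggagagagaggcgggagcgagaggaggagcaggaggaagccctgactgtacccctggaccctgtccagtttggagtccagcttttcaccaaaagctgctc
Col6a1: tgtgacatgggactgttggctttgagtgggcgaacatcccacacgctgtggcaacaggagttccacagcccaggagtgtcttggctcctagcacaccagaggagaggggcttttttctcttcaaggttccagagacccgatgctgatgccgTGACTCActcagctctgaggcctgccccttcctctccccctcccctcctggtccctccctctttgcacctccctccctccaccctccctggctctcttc
The Col6a3 run is 58.4% G and C and the Col6a1 run 60.0%. The TATA box was searched as TATAAA, which is in 12.9% of 33360 promoter runs of this length. The CCAAT box, searched by those letters, is in 34.0% of them. The GC box was searched as GGGCGG and is in 30.5% of the runs. The AP-1 site was searched as TGANTCA, held by 6.35%, and the E-box as CACGTG, held by 5.61%. No match to any of the 5 was found in the Col6a3 run. The Col6a1 run holds 1 AP-1 match, whose first base lies 99 bases before the start. Col1a1, Col3a1 and Dcn are named only.

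All 4 genes were highest in the 1st round cultures of bladder and trachea, and after transplantation all 4 were lower in the cells recovered from both tissues. The fall was 9.01-fold for Col1a1 in bladder and 10.9-fold for Col3a1 in trachea, and smallest for Dcn, at 3.17-fold in bladder and 2.46-fold in trachea. In thymic cells the direction was the opposite, with Col3a1, Col6a3 and Dcn higher by 2.87-fold, 2.84-fold and 2.84-fold in the 2nd round. None of the 4 passed the test in vaginal or whisker cells. In these bulk samples, fewer cells that make a transcript and less of it per cell cannot be told apart. Nor can reads from the mouse feeder fibroblasts be told apart from reads of the rat cells, and their carry-over was not measured.

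Col1a1, the type I collagen chain, stood at 176 and 127 CPM in the 2 samples of 1st round bladder cells and at 17.8 and 15.5 CPM in the 2nd round. In tracheal cells it stood at 151 and 154 CPM in the 1st round and at 25.8 and 25.9 CPM in the 2nd. The 4 samples of 1st round bladder and trachea thus lay between 127 and 176 CPM, and the other 16 samples between 13.5 and 33.2 CPM with a median of 18.1. Vaginal cells had 15.9 and 16.5 CPM in the 1st round and 13.7 and 15.5 CPM in the 2nd. Thymic cells had 13.5 and 14.4 CPM in the 1st round and 19.1 and 21.3 CPM in the 2nd. Whisker cells had 18.5 and 33.2 CPM in the 1st round and 23.9 and 22.8 CPM in the 2nd, the 1st round samples enclosing those of the 2nd. The lowest sample for Col1a1 still held 327 reads.

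Col3a1, the type III collagen gene, was measured at 65.1 and 56.9 CPM in 1st round bladder cells and at 8.14 and 7.92 CPM in recovered ones. Tracheal cells had 100 and 105 CPM before and 12.4 and 7.51 CPM after transplantation. The 1st round tracheal samples were the highest of all, and no sample outside 1st round bladder and trachea exceeded 13.3 CPM. That value belonged to recovered thymic cells, with 13.0 and 13.3 CPM against 5.04 and 4.14 CPM in the 1st round. Vaginal cells had 7.88 and 10.7 CPM before and 6.87 and 7.03 CPM after transplantation, and whisker cells had 3.74 and 9.23 CPM before and 7.55 and 4.46 CPM after. In whisker cells the 2 rounds overlapped.

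Col6a3, the type VI collagen chain, had 19.3 and 13.8 CPM in 1st round bladder cells and 3.71 and 3.06 CPM in recovered ones. In tracheal cells it had 22.8 and 23.6 CPM before and 5.82 and 4.27 CPM after transplantation. The other 16 samples spanned 2.04 to 7.66 CPM, and the highest were again the recovered thymic cells, with 7.35 and 7.66 CPM against 2.22 and 3.15 CPM in the 1st round. Vaginal cells had 3.25 and 4.87 CPM before and 2.56 and 5.78 CPM after. Whisker cells had 2.04 and 4.22 CPM before and 4.37 and 3.07 CPM after. The rounds overlapped in both tissues.

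Dcn, the decorin gene, had the fewest reads of the 4, between 21 and 167 per sample. Bladder cells had 5.0 and 5.3 CPM in the 1st round and 1.62 and 1.59 CPM in the 2nd, and tracheal cells 6.42 and 5.51 CPM in the 1st and 2.96 and 2.04 CPM in the 2nd. The 4 samples of 1st round bladder and trachea lay above the other 16 here too, although by less than for the collagens. Thymic cells had 1.11 and 0.87 CPM before and 2.38 and 3.27 CPM after transplantation. Vaginal cells had 1.15 and 1.42 CPM before and 0.88 and 1.74 CPM after, and whisker cells 0.998 and 2.44 CPM before and 1.75 and 1.39 CPM after. In both of these the rounds overlapped.

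**Figure D1:**
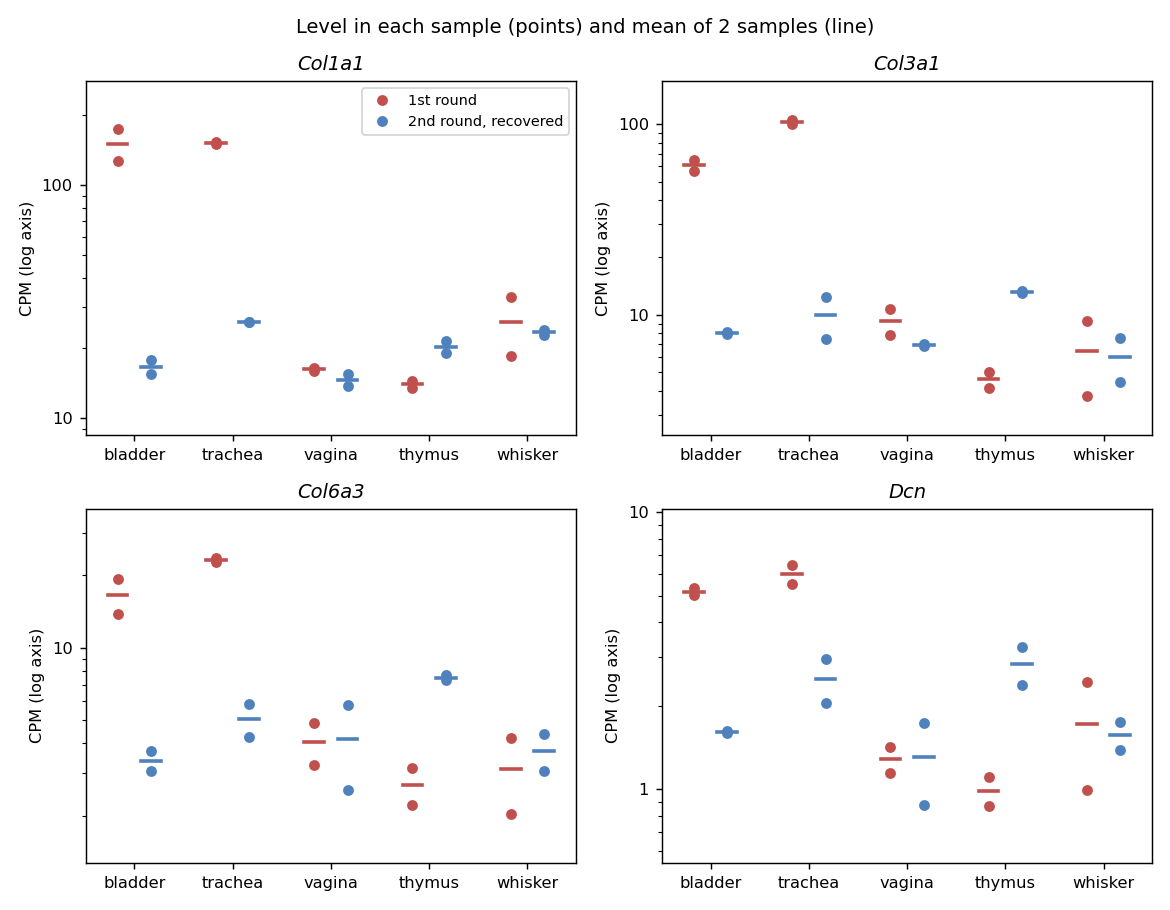
CPM of Col1a1, Col3a1, Col6a3 and Dcn in each of the 20 samples (points) and the mean of the 2 samples (short line), on a log axis, by tissue of origin, with the 1st round in red and the recovered 2nd round in blue. The 4 red points of bladder and trachea sit above all other points in each panel, and in thymus the blue points sit above the red ones.

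The change after transplantation was tested with limma voom in 1 model over all 20 samples, and a gene was called at a Benjamini-Hochberg adjusted p under 0.05 with a change of at least 2-fold. In bladder cells all 4 genes were called lower, where 11.0% of all tested genes and 22.2% of those with a symbol were called lower. The log2 fold change was -3.17 (95% interval -3.59 to -2.75, adjusted p = 1.3e-09) for Col1a1 and -2.92 (-3.46 to -2.38, adjusted p = 6.6e-08) for Col3a1. For Col6a3 it was -2.28 (-2.99 to -1.57, adjusted p = 2.2e-05) and for Dcn -1.66 (-2.35 to -0.98, adjusted p = 3.4e-04). All 4 calls were kept when any 1 sample was left out.

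In tracheal cells all 4 were again called lower, against 8.04% of all tested genes and 17.5% of those with a symbol. The log2 fold change was -2.56 (-2.94 to -2.18, adjusted p = 1.5e-08) for Col1a1 and -3.44 (-3.93 to -2.95, adjusted p = 1.1e-08) for Col3a1. It was -2.24 (-2.83 to -1.65, adjusted p = 9.6e-06) for Col6a3 and -1.30 (-1.87 to -0.72, adjusted p = 0.0012) for Dcn. Col1a1 had the largest fall of the 4 in bladder and Col3a1 in trachea. When the 2 tissues were compared directly, the change in trachea minus the change in bladder was 0.61 (0.05 to 1.17, adjusted p = 0.094) for Col1a1, -0.52 (-1.25 to 0.21) for Col3a1, 0.04 (-0.88 to 0.97) for Col6a3 and 0.37 (-0.53 to 1.26) for Dcn. None of these differences passed the test (30.9% of all tested genes did, in either direction), and without the second sample of 1st round bladder cells that of Col1a1 was 0.84 (adjusted p = 0.016).

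In thymic cells 3 of the 4 genes were called higher after transplantation, against 8.49% of all tested genes and 19.3% of those with a symbol. The log2 fold change was 1.52 (0.84 to 2.20, adjusted p = 0.001) for Col3a1, 1.5 (0.72 to 2.29, adjusted p = 0.0034) for Col6a3 and 1.51 (0.69 to 2.32, adjusted p = 0.0043) for Dcn. Col1a1 was measured at 0.54 (0.07 to 1.01, adjusted p = 0.054) and was not called, although its 2 recovered samples lay above both 1st round samples. Dcn missed the threshold, at 1.23 with an adjusted p of 0.051, without the second sample of recovered thymic cells. The 1st round thymic cells carry both culture names noted above, so clone or bulk origin and round cannot be told apart here.

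In vaginal cells 0 of the 4 genes were called by limma voom, where 11.8% of all tested genes were called in either direction. The log2 fold changes were -0.15 (-0.63 to 0.34) for Col1a1, -0.39 (-1.02 to 0.25) for Col3a1, 0.02 (-0.77 to 0.81) for Col6a3 and 0.00 (-0.88 to 0.88) for Dcn. In whisker cells 0 of 4 were called, where 5.98% of all tested genes were. There the log2 fold changes were -0.07 (-0.51 to 0.36), -0.00 (-0.76 to 0.75), 0.33 (-0.56 to 1.23) and 0.02 (-0.82 to 0.86) in the same order. At an unadjusted p under 0.05, 0 of the 4 passed in either tissue, and edgeR and DESeq2 called 0 as well. The intervals of Col6a3 and Dcn leave room for a change of nearly 2-fold in vaginal cells in either direction. That of Col3a1 there reaches a fall of 2-fold. In whisker cells the interval of Col6a3 leaves room for a rise of more than 2-fold, and those of Col3a1 and Dcn for nearly 2-fold in either direction.

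**Figure D2:**
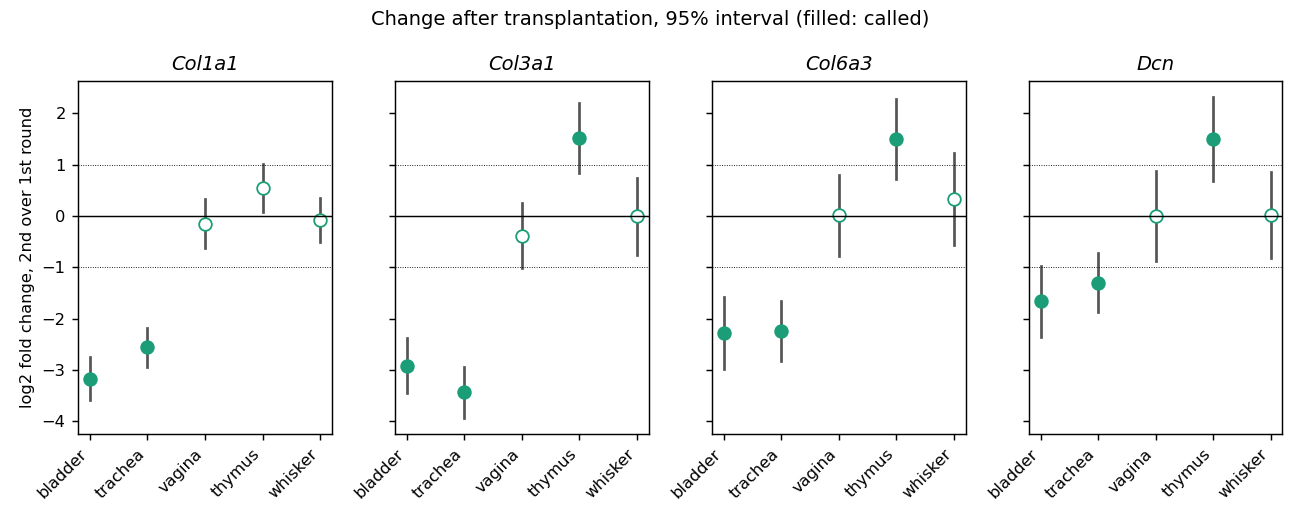
Log2 fold change of each gene after transplantation (2nd over 1st round) by tissue, with the 95% interval from limma voom. Filled points passed an adjusted p under 0.05 and at least 2-fold (dotted lines), which was so for all 4 genes in bladder and trachea and for Col3a1, Col6a3 and Dcn in thymus.

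The study took whisker follicle cells as its reference, and the whisker cells of a round served as reference for the other tissues of that round. In the 1st round all 4 genes were called higher in bladder, against 18.2% of all tested genes, with log2 differences of 2.60 ± 0.18 (SE) for Col1a1, 3.40 ± 0.28 for Col3a1, 2.5 ± 0.35 for Col6a3 and 1.74 ± 0.32 for Dcn. All 4 were also called higher in trachea, against 15.4% of all tested genes, with 2.63 ± 0.18, 4.16 ± 0.28, 3.00 ± 0.34 and 1.95 ± 0.32 in the same order. Of the 2311 genes with a symbol, from which the 4 come, 38% were called higher in bladder and 33.2% in trachea. The comparisons with bladder and with trachea share the 2 whisker samples. In 1st round vaginal cells 0 of 4 genes were called (18.6% of all tested genes in either direction), and in 1st round thymic cells 0 of 4 (22.9%). Col1a1 was there at -0.60 ± 0.22 (adjusted p = 0.026) and -0.82 ± 0.22 (adjusted p = 0.0044), both under 2-fold. At an unadjusted p under 0.05, Col1a1 alone of the 4 passed in each of these tissues, and edgeR and DESeq2 called 0 of 4.

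These comparisons rest on whisker samples that differed among themselves. In the 1st round the second whisker sample exceeded the first by 1.8-fold for Col1a1, 2.47-fold for Col3a1, 2.07-fold for Col6a3 and 2.44-fold for Dcn, and by 2.76-fold for Col6a1. The calls in bladder and trachea were kept without either of the 2. Without the first whisker sample, 3 of the 4 genes were called lower in thymic than in whisker cells, Col1a1 at -1.25, Col3a1 at -1.01 and Dcn at -1.29, and Col1a1 was called lower in vaginal cells at -1.04. Without the second, Col3a1 was called higher in vaginal cells at 1.27.

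Among recovered cells, 0 of the 4 genes were called against whisker in bladder (20.1% of all tested genes in either direction), trachea (19.0%) or vagina (11.9%), by limma voom, edgeR or DESeq2. Col1a1 in vagina, at -0.68 ± 0.22 from whisker (limma voom adjusted p = 0.019), was under 2-fold. At an unadjusted p under 0.05, Col1a1 passed in bladder too, and Col3a1 in trachea. Bladder cells stood at -0.50 ± 0.22, 0.49 ± 0.34, -0.11 ± 0.41 and 0.05 ± 0.40 from whisker for Col1a1, Col3a1, Col6a3 and Dcn, and tracheal cells at 0.15 ± 0.20, 0.72 ± 0.32, 0.43 ± 0.37 and 0.63 ± 0.36. Without the second sample of recovered tracheal cells or the first of recovered whisker cells, Col3a1 was called higher in trachea, at 1.12 and 1.07. In recovered thymic cells Col3a1 (1.20 ± 0.30, adjusted p = 0.0036) and Col6a3 (1.04 ± 0.34, adjusted p = 0.018) were called higher. Of all tested genes 10.4% were called higher there, and of those with a symbol 23.2%. Dcn was at 0.86 ± 0.35 (adjusted p = 0.048, under 2-fold). Both calls were lost without the second sample of recovered whisker cells, at 0.78 and 0.76, and that of Col6a3 also without the second recovered thymic sample.

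Whether the change after transplantation differed from that in whisker cells was tested as an interaction, called at an adjusted p under 0.05. The change in bladder lay below that in whisker by 3.10 ± 0.28 for Col1a1 (a difference of -3.10 on the log2 scale), with -2.92 ± 0.44 for Col3a1, -2.62 ± 0.54 for Col6a3 and -1.69 ± 0.51 for Dcn, and all 4 were called, where 22.2% of all tested genes were called lower. The change in trachea minus that in whisker was -2.49 ± 0.27, -3.44 ± 0.42, -2.57 ± 0.51 and -1.32 ± 0.48, all called, where 16.9% of all tested genes were called lower. The call of Dcn there (adjusted p = 0.042) was lost with edgeR, with DESeq2, without a filter on low counts, with the replicate number as a block (adjusted p = 0.051), and in 5 of the 8 fits that left out a sample. For thymus, Col3a1 (1.53 ± 0.48, adjusted p = 0.017) and Dcn (1.48 ± 0.55, adjusted p = 0.039) were called, where 22.6% of all tested genes were called higher. Col1a1 (0.61 ± 0.30, adjusted p = 0.11) and Col6a3 (1.17 ± 0.56, adjusted p = 0.1) were not. For vagina 0 of 4 were called, with differences between -0.38 and -0.02 and 26.9% of all tested genes called in either direction.

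Ordered by mean CPM, 1st round trachea came first and 1st round bladder second for each of the 4 genes. For Col1a1 the means were 153 and 151 CPM, which did not differ beyond their spread (log2 difference 0.03 ± 0.16), and the next group was 1st round whisker at 25.9 CPM. For Col3a1 trachea exceeded bladder, 103 against 61.0 CPM, by 0.75 ± 0.17 (adjusted p = 0.0018), less than 2-fold. For Col6a3 the means were 23.2 and 16.5 CPM (0.50 ± 0.20, adjusted p = 0.057) and for Dcn 5.97 and 5.15 CPM (0.21 ± 0.22). The third group was recovered thymus for Col3a1, Col6a3 and Dcn, at 13.2, 7.5 and 2.82 CPM. The step from 1st round bladder down to the third group was called for Col1a1 (2.60 ± 0.18), Col3a1 (2.21 ± 0.21) and Col6a3 (1.13 ± 0.25). For Col1a1 this repeats the comparison of bladder with whisker, where 18.2% of all tested genes were called higher. Against recovered thymus 14.8% were called higher in 1st round bladder, and the step for Dcn was 0.85 ± 0.26 (adjusted p = 0.0089), under 2-fold. The order and these tests rest on the same values, so the pairs were not set beforehand. No later pair of neighbours in the order, down to 1st round thymus as the lowest group for each gene, passed the test at an adjusted p under 0.05.

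The 4 genes did not keep fixed proportions to each other. Within a sample, the ratio of Dcn reads to Col1a1 reads lay between 0.0285 and 0.0424 in the 4 samples of 1st round bladder and trachea and between 0.0539 and 0.153 in the other 16. The ratio of Dcn to Col3a1 was likewise lower in those 4 samples, 0.0524 to 0.0931 against 0.128 to 0.312, and so was that of Col6a3 to Col3a1, 0.225 to 0.297 against 0.372 to 0.822. The ratio of Col3a1 to Col1a1 did not set those 4 samples apart. It was 0.371 and 0.449 in 1st round bladder, 0.663 and 0.683 in 1st round trachea, 0.682 and 0.625 in recovered thymus, and between 0.195 and 0.316 in the 4 whisker samples. Samples of other tissues lay among these values, with 0.374 and 0.288 in 1st round thymus, 0.483 and 0.290 in recovered trachea, and 0.496 and 0.648 in 1st round vagina. These are ratios of read counts without correction for transcript length, so only their differences between samples can be read.

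**Figure D3:**
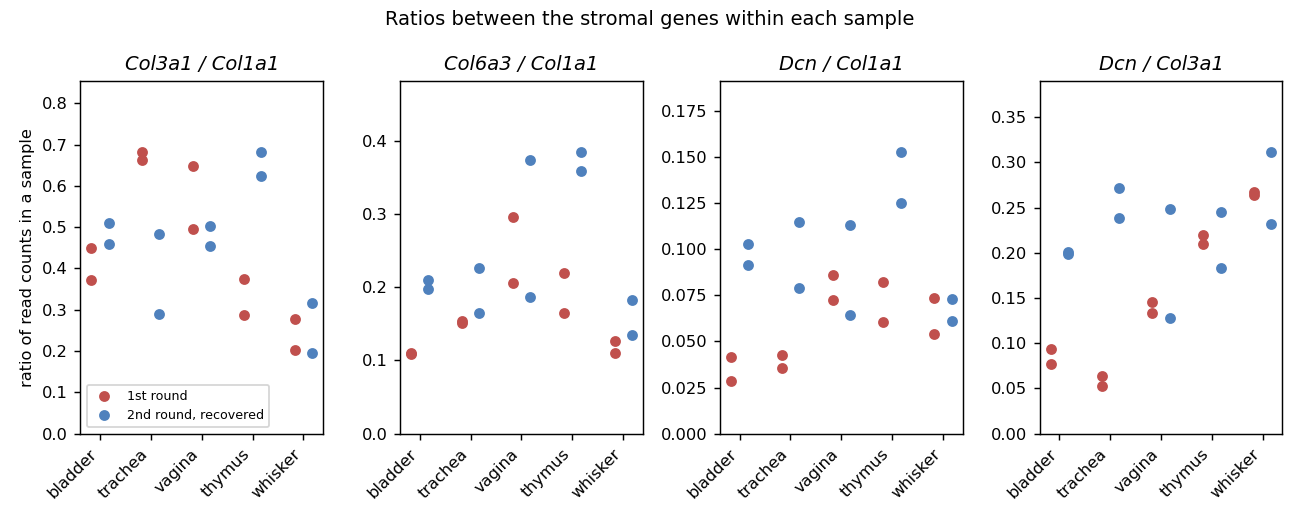
Ratio of read counts between pairs of the 4 genes in each sample, by tissue of origin, with the 1st round in red and the recovered 2nd round in blue; axes start at 0. The ratios of Dcn to Col1a1 and of Dcn to Col3a1 are lowest in the 4 samples of 1st round bladder and trachea, while Col3a1 to Col1a1 is low in the whisker samples and in 1 sample each of 1st round thymus and recovered trachea.

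For the change after transplantation, the partner chains of Col6a3 were called in the same tissues and directions as Col6a3. Of the 3 chains listed as assembling with the products of Col1a1 or Col6a3, the type VI chains Col6a1 and Col6a2 could be paired with an identifier, and Col1a2 is not analysed here. Col6a1 had 27.4 and 19.7 CPM in 1st round bladder cells and 5.90 and 5.25 CPM in recovered ones, and 36.0 CPM in both samples of 1st round trachea and 7.28 and 4.85 CPM after. Col6a2 had 24.2 and 19.4 CPM before and 3.05 and 3.92 CPM after in bladder, and 38.5 and 37.6 CPM before and 3.94 and 4.01 CPM after in trachea. Both chains fell in bladder, by 2.07 and 2.64 on the log2 scale, and in trachea, by 2.63 and 3.25. Both rose in thymus, with log2 fold changes of 1.41 ± 0.41 (adjusted p = 0.0091) and 1.39 ± 0.34 (adjusted p = 0.0033), and 0 of the 2 was called in vaginal or whisker cells. Of all tested genes, 11.0% were called lower in bladder, 8.04% lower in trachea and 8.49% higher in thymus. In vaginal and whisker cells 11.8% and 5.98% were called in either direction. Against whisker, 0 of the 2 was called in recovered thymus, where Col6a3 was called higher, as were 10.4% of all tested genes. The ratio of Col6a1 to Col6a3 reads lay between 1.42 and 1.58 in 1st round bladder and trachea, inside the range of the other 16 samples, 0.829 to 2.07. The ratio of Col6a2 to Col6a3 was shifted, with 1.25 to 1.69 in those 4 samples and 0.592 to 1.28 in the other 16, ranges that overlap slightly.

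Other interstitial collagens did not share this pattern as a group. Of 14 listed, 12 were paired, and their median log2 fold change was 0.71 in bladder, with 3 called higher and 3 lower, and -0.35 in trachea, with 1 called lower. Over all tested genes the medians were 0.01 and 0.02, with 10.1% called higher and 11.0% lower in bladder and 4.39% higher and 8.04% lower in trachea. Among the 2311 genes that have a symbol, from which every listed gene comes, 43.1% were called in bladder and 27.6% in trachea in either direction. Col5a2, a chain of type V collagen, rose in bladder, from 105 and 104 CPM to 218 and 227 CPM (1.09 ± 0.09). It fell in whisker, by 1.75 on the log2 scale. Col12a1, a collagen associated with fibrils, rose in thymus (2.64 ± 0.21) and was at 0.66 ± 0.20 in bladder and 0.97 ± 0.21 in trachea, both under 2-fold. Col11a1, a chain of type XI collagen, rose in thymus (3.42 ± 0.25) and fell in trachea by 3.04. Col8a1, a short-chain collagen, rose in bladder (2.69 ± 0.25) and was at 0.15 ± 0.24 in trachea. Other collagens of the list went lower in bladder, as the 4 genes did. Their means went from 102 to 40.7 CPM for Col5a1, from 2.75 to 1.2 CPM for Col5a3 and from 5.15 to 0.586 CPM for Col27a1. In thymus, where 3 of the 4 genes rose, the mean of Col27a1 went from 1.51 to 0.248 CPM.

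Of 11 leucine-rich proteoglycans other than decorin, Bgn and Aspn were paired, and in bladder 1 was called lower and 1 higher. Aspn was the one called higher, from 1 and 0 reads in 1st round bladder to 8 and 9 in recovered cells. Bgn, which encodes biglycan, a close relative of decorin, had 80.6 and 52.0 CPM in 1st round bladder and 5.52 and 4.95 CPM in recovered cells, a fall of 3.63 on the log2 scale. In trachea it fell by 1.8, from 34.1 and 31.1 CPM to 11.0 and 8.17 CPM, and in thymus it rose (1.56 ± 0.46, adjusted p = 0.011). Of the 27 genes of collagen modification and processing, 5 were paired, of which 2 fell and 1 rose in bladder and 3 fell in trachea. Among genes that have a symbol, 22.2% were called lower and 20.9% higher in bladder and 17.5% lower in trachea, and among all tested genes 11.0%, 10.1% and 8.04%. Adamts2, which removes the amino-terminal propeptide of fibrillar procollagens, fell by 2.36 in bladder and 1.93 in trachea and was not called in the other tissues. Loxl2, a lysyl oxidase relative that cross-links collagen, fell by 2.33 in bladder, 2.68 in trachea and 1.64 in whisker and rose in thymus (1.58 ± 0.22). Bmp1, which removes the carboxy-terminal propeptide, was not called in any of the 5 tissues, with values between -0.51 and 0.31.

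Of 11 collagen receptors, 4 were paired, with 2 called higher and 2 lower in bladder and 2 lower in trachea, beside 43.1% of the genes with a symbol called in either direction in bladder and 27.6% in trachea (21.1% and 12.4% of all tested genes). Ddr2, a receptor tyrosine kinase for fibrillar collagen, fell by 3.54 in bladder and 2.22 in trachea, while Antxr1 rose in bladder (2.88) and Antxr2 fell there by 1.99. Of 12 collagen-degrading enzymes and their inhibitors, 2 were paired. Timp3, an inhibitor of metalloproteinases, fell in all 5 tissues, by 3.16 in bladder, 3.15 in trachea, 2.83 in vagina, 1.54 in thymus and 5.24 in whisker. Its recovered means were low, from 0.179 CPM in bladder to 0.429 CPM in vagina, so the sizes of these falls rest on few reads. It thus fell also in vaginal and whisker cells, where the 4 genes were not called, and in thymic cells, where 3 of them rose.

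Among 16 basement membrane genes, 6 were paired. Col4a1 and Col4a2, the common type IV collagen chains, fell in bladder by 2.98 and 2.71 and in trachea by 2.01 and 2.07. They rose in thymus (1.32 ± 0.19 and 1.68 ± 0.22) and also in vagina (2.88 ± 0.18 and 3.47 ± 0.20), where the 4 stromal genes were not called. Col17a1, the hemidesmosomal collagen of basal epithelial cells, and Col7a1, the anchoring fibril collagen, rose in bladder (2.80 and 2.19), the tissue in which the 4 genes fell. Of 22 genes of the TGF-beta axis, which regulates matrix genes in fibroblasts, 4 were paired. Inhba fell by 3.96 in bladder and 3.05 in trachea, Tgfbi rose there (2.60 and 1.15), and Ctgf was not called in any of the 5 tissues, with values between -0.85 and 0.92.

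**Figure D4:**
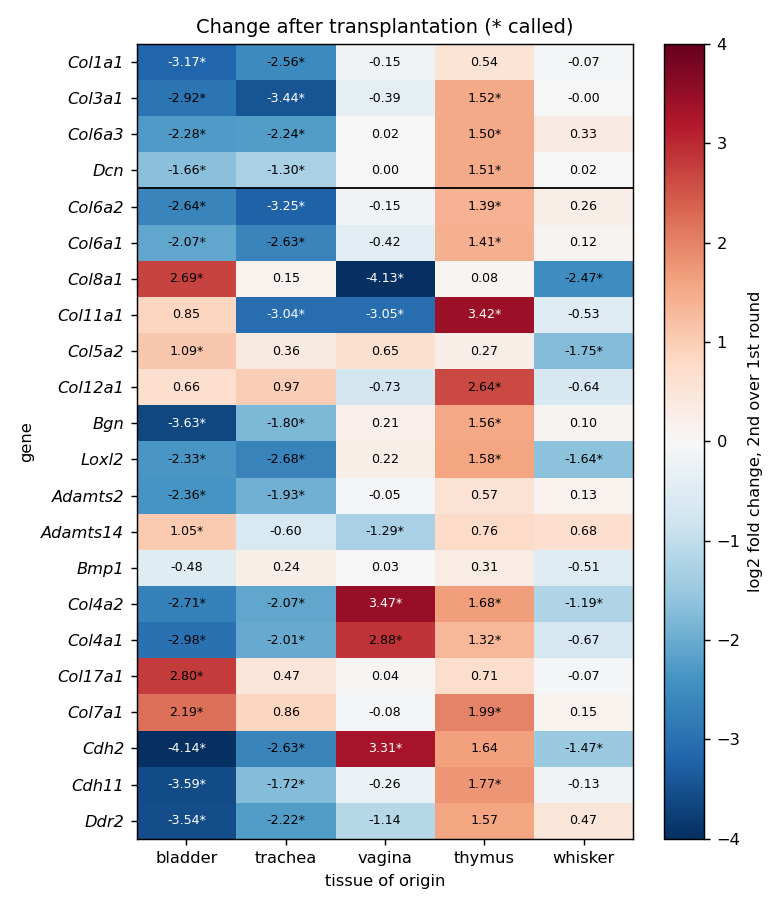
Log2 fold change after transplantation (2nd over 1st round) by tissue for the 4 genes (above the line) and for related genes named by rule with more than 3 reads in every group; an asterisk marks an adjusted p under 0.05 with at least 2-fold. Col6a1, Col6a2, Bgn and Cdh11 fall in bladder and trachea and rise in thymus, as Col3a1, Col6a3 and Dcn do, while Col5a2, Col17a1 and Col7a1 rise in bladder.

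Markers of fibroblasts moved with the 4 genes in part. Of 24 listed fibroblast markers, 3 were paired (Ddr2, Cdh2 and Cdh11), all of which the study had listed as different from whisker cells, and the defining ones, Pdgfra, Pdgfrb, Thy1 and Lum, are not analysed here. All 3 fell in bladder and in trachea, 1 rose in thymus and 1 in vagina, and 1 fell in whisker. Of the genes with a symbol, 22.2% were called lower in bladder, 17.5% lower in trachea, 19.3% higher in thymus, 8.96% higher in vagina and 9.69% lower in whisker. Cdh11, a cadherin of mesenchymal cells, had 32.0 and 23.7 CPM in 1st round bladder and 10.8 and 10.7 CPM in 1st round trachea, against 0.828 to 4.04 CPM in the other 16 samples. It fell by 3.59 in bladder and 1.72 in trachea and rose in thymus (1.77 ± 0.50, adjusted p = 0.0085). Cdh2 (N-cadherin) went otherwise, with its highest levels in 1st round whisker, at 35.4 and 31.6 CPM, where the 4 genes were low. The 3 markers summed to 45.8 and 33.0 CPM in 1st round bladder, 15.1 and 14.7 CPM in 1st round trachea, 36.7 and 34.2 CPM in 1st round whisker, 12.8 and 14.9 CPM in 2nd round whisker, and 1.12 to 5.78 CPM in the other 12 samples. Their part in the result was not tested.

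Of 9 smooth muscle and pericyte markers, Acta2, Cspg4 and Mylk were paired. Their sum went from 2.62 and 2.82 CPM to 19.2 and 18.2 CPM in thymus and from 4.58 and 4.59 CPM to 3.29 and 2.92 CPM in trachea, the directions of the 4 genes. In bladder it went the other way, from 9.37 and 11.6 CPM to 14.5 and 15.6 CPM, and in vagina it went from 3.13 and 3.77 CPM to 33.9 and 33.1 CPM. In these 2 tissues the sum followed Cspg4, a proteoglycan of pericytes that also occurs in epithelial stem cells, which had 0.112 and 0.215 CPM before and 8.67 and 10.3 CPM after in bladder and 0.191 and 0.222 CPM before and 31.9 and 31.3 CPM after in vagina. Acta2, smooth muscle actin, rose in thymus (3.32 ± 0.22) and fell in vagina by 2.06. It stood at -0.95 ± 0.17 (adjusted p = 1.5e-04) in bladder and -0.70 ± 0.24 (adjusted p = 0.03) in trachea, both under 2-fold. Of 9 immune markers, Cd68 was paired. It rose in bladder (1.94) and trachea (2.32) and fell in vagina by 1.98. None of the 7 endothelial markers or of the 9 markers of glia and melanocytes was paired, and they are not analysed here. Krt8, a keratin of simple epithelia, also had its highest levels in 1st round bladder and trachea. It had 1656 and 1700 CPM in 1st round bladder and 1147 and 1095 CPM in 1st round trachea, and it fell in both, by 2.59 and 2.17. It fell in the other tissues too, by 2.63 in thymus, where 3 of the 4 genes rose, by 5.40 in vagina and by 2.31 in whisker. In whisker its means were only 0.767 CPM before and 0.187 CPM after, with the 2 recovered samples 7.11-fold apart. Krt18, called in all 5 tissues, had the directions of the 4 genes in bladder, trachea and thymus. Its mean went from 334 to 23.2 CPM in bladder, from 72.6 to 6.88 CPM in trachea and from 2.86 to 6.57 CPM in thymus. It also went from 7.32 to 1.56 CPM in vagina and from 0.424 to 0.0691 CPM in whisker, where the 4 genes were not called. Krt19 also had its highest mean in 1st round bladder, 922 CPM, against 441 CPM in recovered bladder. In trachea its mean went from 261 to 25.3 CPM. The recovered bladder samples, at 469 and 413 CPM, still lay above the 248 and 273 CPM of 1st round trachea. Other epithelial markers rose in bladder, with means from 1479 to 3408 CPM for Dsp and from 151 to 1619 CPM for Dsg3. Of the paired epithelial markers, 3 were called higher and 3 lower there, beside 20.9% and 22.2% of the genes with a symbol. The 9 paired epithelial markers of 23 listed summed to between 5403 and 14650 CPM over the 20 samples, with 6737 to 8012 CPM in the 4 samples of 1st round bladder and trachea. The part of these markers in the result was not tested either.

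Across the 20 samples the genes most like each of the 4, by Pearson's r of log2 CPM among genes that have a symbol, were largely the other matrix genes. They were Col6a2 (r = 0.941), Bgn, F5, Col3a1 and Col6a1 for Col1a1. For Col3a1 they were Col6a2 (r = 0.984), Col6a1 (0.973), Col6a3, Cp and Col1a1, and for Col6a3 they were Col3a1 (r = 0.962), Col6a1, Col6a2, Cp and Dcn. For Dcn they were Col6a1 (r = 0.943), Col6a3, Cp, Col3a1 and Col6a2. Cp (ceruloplasmin) and F5 (coagulation factor V) are secreted proteins of plasma. Among all 13301 other tested genes, Col6a2 ranked first for Col3a1 and Col3a1 first for Col6a3, while Col6a2 was only the seventh for Col1a1. The points share 10 groups of 2 samples, so these values are descriptions of the group pattern.

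The likeness of Col1a1 to the others was weaker outside 1st round bladder and trachea. Over all 20 samples r between pairs of the 4 genes lay between 0.892 and 0.962. Over the 16 samples without 1st round bladder and trachea it was 0.34 between Col1a1 and Col3a1 and 0.404 between Col1a1 and Col6a3. It stayed at 0.827 between Col3a1 and Col6a3, 0.792 between Col3a1 and Dcn and 0.836 between Col6a3 and Dcn. Between Col1a1 and Dcn it was 0.701.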

How the data were processed

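Poly(A) RNA of 20 samples, 2 in each of 10 groups, was sequenced from stranded libraries. The authors trimmed reads with cutadapt 1.8, aligned them with STAR 2.5.2b to Rnor_6.0 and counted them per Ensembl gene with HTSeq 0.6.1. They deposited raw counts per gene, without normalization. Reads with several alignments, 28.81% to 35.77% per sample, and reads on no gene, 8.505% to 13.43%, were not counted on genes and were left out here, which lowers genes with near-identical copies. Reads on genes had a median of 24566207 per sample.

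From these counts, CPM and log2 CPM values, both scaled by TMM factors, were computed with edgeR 4.0.16 (R 4.3.3). The 13302 genes that reached 1 CPM before TMM scaling in any sample were tested with limma 3.58.1 (voom), the test named in the methods of the study. The model held a mean per group over all 20 samples. The Benjamini-Hochberg adjustment was made over all tested genes of a comparison. With 2 against 2 samples an exact permutation test cannot go below p = 0.33. Likeness was computed on log2 CPM (prior count 2). The alternatives were edgeR's quasi-likelihood test, DESeq2 1.42.0 and its size factors, other filters, a log2 threshold of 2, fits of only the 4 samples compared, the replicate number as a block, and each sample left out in turn.

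The 4 genes, the gene lists and the tests were chosen with earlier results of these data known. Genes were selected by rule: the 4 members, up to 3 genes of each list called in most tissues and its 2 with the highest mean CPM, and the 5 most like each member. Not all of them are described: Adamts14, Col4a3, Ctsk and Cyr61 were selected too, and the text gives no values for them. Cdh1, Epcam, Krt5, Krt14 and the defining fibroblast genes are named as defining markers, and Mylk, Col5a1, Col5a3 and Dsg3 to account for their lists. Only genes with an identifier paired with a symbol by the study's lists could be matched, and other listed genes are not analysed here. Gene lengths were not used, so levels of different genes are not compared. Counts do not tell rat from mouse reads, and carry-over of feeder RNA was not measured. The correlation of the deviations of same-numbered samples lay between -0.123 and 0.155 over 13 comparisons. It was over 0.1 only for recovered trachea (0.14), vagina (0.155) and thymus (0.112) against whisker, and the sources give the numbers no shared origin, so they were not taken as pairs.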

Additional observations from a re-analysis of the deposited data

Results flagged for a closer look

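The change after transplantation differed between tissues for each of the 4 genes, by the interaction term of the limma voom model (adjusted p under 0.05). Compared with the change in whisker cells, the change in bladder cells was lower, with a log2 difference of -3.10 for Col1a1, -2.92 for Col3a1, -2.62 for Col6a3 and -1.69 for Dcn. For tracheal cells the difference was -2.49 for Col1a1, -3.44 for Col3a1, -2.57 for Col6a3 and -1.32 for Dcn. For thymic cells it was 1.53 for Col3a1 and 1.48 for Dcn. All of these comparisons share the 4 whisker samples. Leaving out 1 sample at a time changed none of the calls of Col1a1, Col3a1 and Col6a3 in bladder and trachea. It ended the call of Dcn in bladder without the first whisker sample of the 1st round (-1.02, adjusted p = 0.091) or of the 2nd (-1.53, adjusted p = 0.055). The call of Dcn in trachea was lost in 5 of the 8 fits that left out a sample of the 2 tissues, and without the first 1st round whisker sample its value was -0.65 (adjusted p = 0.29). In thymus the call of Col3a1 was lost without the second whisker sample of the 1st round (0.90, adjusted p = 0.14) or of the 2nd (1.12, adjusted p = 0.089), and that of Dcn in 6 of 8 such fits, with the lowest value at 0.87 (adjusted p = 0.24).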

How the results depend on the processing

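Raising the log2 threshold to 2 ended the calls of Dcn in bladder (-1.66) and trachea (-1.30) and of Col3a1 (1.52), Dcn (1.51) and Col6a3 (1.5) in thymus. It also ended those of Dcn against whisker in 1st round bladder (1.74) and trachea (1.95). Between recovered thymus and whisker it left 0 of the 4 genes called. That number was 1 without a filter on low counts. The other calls of the change after transplantation were kept in every fit that left no sample out of the 2 groups. Dcn in whisker, not called, turned from 0.02 to -0.11 with edgeR, -0.14 with DESeq2 and -0.02 with the replicate block, and its change in vagina minus that in whisker, -0.02, turned to 0.18, 0.17 and 0.03. The replicate block ended 1 call, that of Dcn for the change in trachea minus whisker (-1.29, adjusted p = 0.051), which edgeR (-1.16), DESeq2 (-1.15) and the fit without a filter (-1.31) ended too. Those of thymus minus whisker for Col3a1 (1.52) and Dcn (1.47) were also lost without a filter. The replicate block moved no count of all genes called by 1.5 times. In the 4 samples of 1st round bladder and whisker cells, where same-numbered samples had r = -0.123, the block called 3897 genes and the crossed numbering, added after seeing the data, 3918, against 3878 without a block.

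Leaving out 1 sample, where the lone sample is assumed to vary like the other groups, gave changes between -0.61 and 0.55 for Col6a3 and -0.51 and 0.45 for Dcn in vagina, between 1.23 and 1.68 for Dcn in thymus, and in whisker between -0.51 and 0.33 for Col1a1, -0.69 and 0.61 for Col3a1, -0.22 and 0.82 for Col6a3 and -0.64 and 0.62 for Dcn. Against 1st round whisker it gave -0.02 to 1.27 for Col3a1, -0.10 to 0.93 for Col6a3 and -0.93 to 0.33 for Dcn in vagina and -1.01 to 0.28 for Col3a1 and -0.68 to 0.36 for Col6a3 in thymus. Against recovered whisker it gave -0.39 to 0.13 for Col6a3 and -0.13 to 0.20 for Dcn in bladder and -0.12 to 0.64 for Col3a1, -0.50 to 0.66 for Col6a3 and -0.80 to 0.15 for Dcn in vagina. The change in vagina minus that in whisker ranged from -0.47 to 0.36 for Col1a1, -0.99 to 0.30 for Col3a1, -0.94 to 0.23 for Col6a3 and -0.62 to 0.65 for Dcn, and that in trachea minus bladder from -0.21 to 0.31 for Col6a3. The number of the 4 genes called ranged from 0 to 1 in 1st round vagina and from 0 to 3 in 1st round thymus against whisker, and from 0 to 1 in recovered trachea and from 0 to 3 in recovered thymus. The cause was not tested.

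With a log2 threshold of 2, the genes called in all went from 2805 to 1233 in bladder, 1653 to 725 in trachea, 1567 to 682 in vagina, 2046 to 885 in thymus and 795 to 268 in whisker. Against whisker they went in the 1st round from 4250 to 2192 in bladder, 3767 to 1803 in trachea, 2469 to 1182 in vagina and 3048 to 1503 in thymus, and in the 2nd from 2674 to 1236, 2534 to 1174, 1581 to 627 and 2216 to 1074. By Spearman's rho, 1 of the 5 genes most like Col1a1, 2 for Col3a1, 3 for Col6a3 and 2 for Dcn were the same. Depth limits Dcn most, with 21 reads in its lowest sample.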
